A study of Homo sapiens with 6 samples.

Results

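The proteasome subunit genes described here were the protein-coding genes whose GENCODE symbol is PSMA, PSMB, PSMC or PSMD with a number, or PSME1 to PSME4. The rule used gene names only, left out 1 inducible gene of the beta ring, and found 42 of the 58884 genes in the table. Expression of these genes was compared between the parental line DLD1 and its knock-in derivative p85β K477A/R478A (p85β KR-AA), with 3 RNA-seq libraries of each. DLD1 is a human colorectal cancer line with a helical domain mutation in PIK3CA, which the parental and the knock-in cells share, and the knock-in changes a pair of basic residues in the nuclear localization sequence of p85β, the PI3K regulatory subunit encoded by PIK3R2. The study derived more than 1 knock-in clone, and the labels do not tie a library to a clone or to a separate culture, so p-values measure only the spread between these libraries. The titles and genotype labels give K477A/R478A for every knock-in library, whereas the source names of KR-AA replicates 2 and 3 read R479A and R480A in place of R478A. Gene counts cannot show the substitution itself.

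The proteasome is the protease that degrades ubiquitin-tagged proteins in the cytoplasm and nucleus. Its core particle is a barrel of stacked rings, with outer rings of alpha subunits that gate the entrance and inner rings of beta subunits, of which PSMB5, PSMB6 and PSMB7 carry the peptidase sites. The regulatory particle caps the barrel: its base holds a ring of 6 ATPases (PSMC1 to PSMC6) that unfold the substrate and pull it in, and its lid removes the ubiquitin chain. Each subunit enters the finished particle in a fixed ratio to the others. PSMB8 and PSMB10 replace PSMB5 and PSMB7 in the immunoproteasome, which trims peptides for antigen presentation, and PSME1 to PSME4 encode alternative caps.

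Libraries held 20301396 to 26712816 counts. The parental and KR-AA libraries differed widely: of the 16059 genes tested, 6680 were higher and 5246 lower in KR-AA cells. TMM normalization gave factors of 0.677 to 0.777 in parental and 1.35 to 1.41 in KR-AA libraries, so scaling by library totals in its place moved the median log2 fold change of all genes from 0.32 to 1.24. The share of counts from genes with a GC content under 45% was 9.87% to 12.1% in parental and 24.6% to 29.5% in KR-AA libraries, and the share from genes over 55% GC was 53.0% to 57.1% against 30.9% to 34.0%. The 11 markers of colorectal epithelium summed to 57230 to 79262 CPM (counts scaled by library size and TMM) in parental and 8812 to 10313 CPM in KR-AA libraries, while 10 mesenchymal markers summed to 7.65 to 10.4 CPM and 6319 to 7232 CPM. The epithelial sum is mostly keratins (KRT8, KRT18 and KRT19); of 10 such markers tested 7 fell and 2 rose, CDH1 and CDH17, with log2 fold changes of 1.82 and 2.10. The mesenchymal sum in KR-AA libraries is mostly FN1 and VIM, at means of 4992 and 1772 CPM; 7 of the 10 markers were tested and all 7 rose, and 3 markers in parental and 7 in KR-AA cells were over 1 CPM in every library. The 10 immune markers summed to 54.9 to 66.8 CPM and 37 to 45.8 CPM, with MS4A1 at 0 in all libraries. The part of each of these differences in the results below was not tested, beyond the values given with each result. In bulk RNA, fewer cells of a type and less RNA per cell cannot be told apart.

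Subunit genes of the proteasome moved in opposite directions. Of the 42 genes, 40 passed the filter on low counts. At an adjusted p under 0.01 (edgeR quasi-likelihood test, Benjamini-Hochberg over all genes tested), which is what rose and fell mean below, 26 fell in KR-AA cells, 8 rose and 6 did not pass. These are 65% lower and 20% higher, beside 32.7% lower and 41.6% higher among all genes tested. With the fold change of at least 3 that the study used, 16 subunit genes were lower and 1 was higher, beside 17.6% and 28.6% of all genes. The groups did not overlap for 26 genes that were lower and 11 that were higher, beside 36.5% and 47% of all genes. The median log2 fold change of the tested subunit genes was -1.21, against 0.32 over all genes tested. The other 2 genes are tissue-restricted variants: PSMA8, the alpha subunit of the testis, had 0 counts in every library, and PSMB11, the beta subunit of the thymus, had counts in 1 parental library only, at or below the floor of 3 counts.

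The scaling changed the balance of these counts. With library totals in place of TMM, 18 subunit genes fell and 14 rose, and their median was -0.29 beside 1.24 over all genes. With offsets for transcript length and GC content, 27 fell and 5 rose, with medians of -0.79 and 0.26. The median of the subunit genes lay below that of all genes under each of the 3 scalings.

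**Figure D1:**
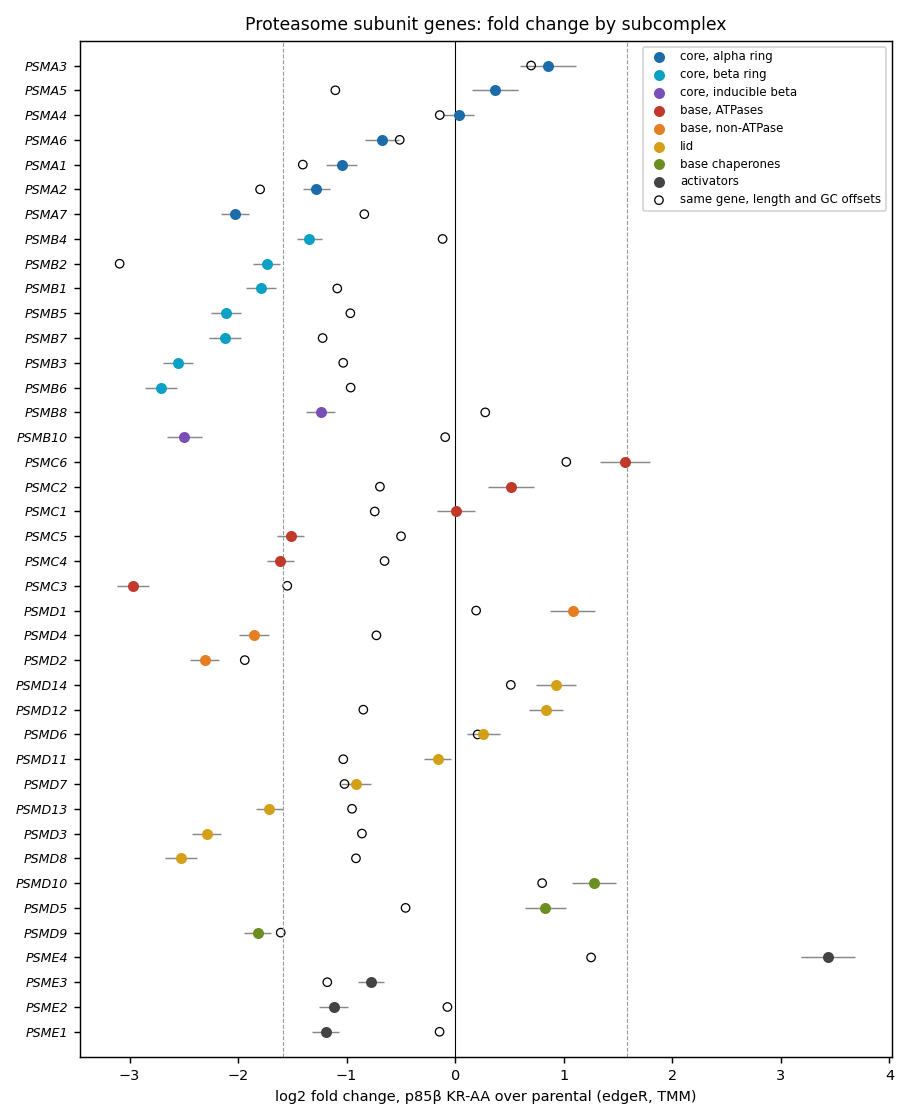
Log2 fold change (KR-AA over parental) of the 40 tested proteasome subunit genes, grouped by subcomplex. Filled points are the edgeR values with TMM scaling, bars 1 SE, open circles the same gene with length and GC offsets, and dashed lines a fold change of 3. Values run from -2.97 for PSMC3 to 3.44 for PSME4, and all 7 constitutive beta ring genes lie left of 0.

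In the core particle, 13 of the 16 tested genes fell and 1 rose, with a median log2 fold change of -1.54. The beta ring fell as a whole. All 7 constitutive beta genes were lower, 6 of them by a fold change of at least 3, with a median of -2.11. PSMB6 encodes the subunit with caspase-like activity. Its level was 481, 581 and 429.6 CPM in parental and 73.9, 74.5 and 79.7 CPM in KR-AA libraries, log2 fold change -2.71 ± 0.14 (standard error, SE, as after every log2 fold change below) with an adjusted p of 7.54e-09. The subunit with chymotrypsin-like activity, PSMB5, was at 502, 582 and 457 CPM in parental and 117, 110.1 and 129.6 CPM in KR-AA libraries (log2 fold change -2.11 ± 0.14). PSMB7, with trypsin-like activity, was at 501, 667 and 486 CPM and 127, 121 and 132 CPM (log2 fold change -2.12 ± 0.15). Every KR-AA library was thus below every parental library for the 3 catalytic subunits.

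The structural members of the beta ring were each lower. PSMB3 was at 528, 646 and 527 CPM in parental and 95.7, 90.5 and 104 CPM in KR-AA libraries (log2 fold change -2.55 ± 0.14). The values of PSMB1 were 453, 606 and 496 CPM and 151, 147 and 153 CPM (log2 fold change -1.79 ± 0.14), and those of PSMB2 331, 302 and 288 CPM and 92.3, 87.9 and 96.5 CPM (log2 fold change -1.73 ± 0.12). PSMB4 was at 519.7, 540.0 and 547 CPM in parental and 209, 207 and 217 CPM in KR-AA libraries (log2 fold change -1.34 ± 0.12). With library totals all 7 still fell, at a median of -1.18. With length and GC offsets 6 of 7 fell, at a median of -1.03, with PSMB2 the lowest at -3.09, and PSMB4 was at -0.12 with an adjusted p of 0.19 by edgeR.

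The alpha ring was mixed. Of its 7 tested genes 4 fell, 1 rose and 2 did not pass. PSMA7 fell from 667, 819 and 696 CPM in parental to 178, 173 and 185 CPM in KR-AA libraries (log2 fold change -2.03 ± 0.13, adjusted p = 2.18e-08 by edgeR). Falls were also measured for PSMA2 (log2 fold change -1.28 ± 0.13), PSMA1 (log2 fold change -1.05 ± 0.14) and PSMA6 (log2 fold change -0.68 ± 0.16), and PSMA2 was lower than PSMA7 under length and GC offsets, at -1.80 against -0.84. PSMA3 went the other way. Its parental libraries were at 13.7, 31.3 and 26.9 CPM and its KR-AA libraries at 49.1, 46.2 and 34.5 CPM (log2 fold change 0.85 ± 0.25, adjusted p = 0.0076 by edgeR), with parental replicate 1 lowest. This call did not hold when any of 4 single libraries was left out (adjusted p of 0.018 to 0.025). PSMA4 and PSMA5 did not pass, at log2 fold changes of 0.03 ± 0.14 (SE) and 0.36 ± 0.21 (SE). The scaling set the sign for part of the ring: with library totals 3 alpha genes rose and 1 fell, and with length and GC offsets 1 rose and 5 fell.

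PSMB8 and PSMB10, the inducible counterparts of PSMB5 and PSMB7, fell too, but by different amounts relative to their partners. PSMB8 was at 107, 116 and 104 CPM in parental and 44.8, 42.3 and 51.5 CPM in KR-AA libraries (log2 fold change -1.24 ± 0.13). PSMB10 was at 95.8, 128 and 93.0 CPM and 17.6, 18.7 and 20.0 CPM (log2 fold change -2.49 ± 0.16). Per base of transcript, PSMB8 made up 19.7%, 18.7% and 20.7% of PSMB8 plus PSMB5 in parental libraries and 30.5%, 30.7% and 31.4% in KR-AA libraries. The share of PSMB10 in PSMB10 plus PSMB7 went the other way, from 16.1%, 16.2% and 16.2% to 12.2%, 13.4% and 13.2%. Such a share within a library does not depend on the scaling between libraries, but it is not corrected for GC content. The groups did not overlap for either share, and no test was made, because an exact two-sided permutation test of 3 against 3 libraries cannot give a p under 0.1. The transcripts of these pairs differ in GC content, at 54.9% for PSMB8 and 53.0% for PSMB5, and at 61.7% for PSMB10 and 49.8% for PSMB7. With library totals PSMB8 was at -0.31 (adjusted p = 0.034 by edgeR) and PSMB10 at -1.56. With length and GC offsets PSMB8 was at 0.28 (adjusted p = 0.011 by edgeR) and PSMB10 at -0.09 (adjusted p = 0.47 by edgeR). PSMB8 thus passed the threshold in neither of these fits, and PSMB10 with library totals alone. With length and GC offsets the partners PSMB5 and PSMB7 were at -0.97 and -1.22. In that fit PSMB10 thus lay above PSMB7, the reverse of its share, while PSMB8 still lay above PSMB5. Reads of PSMB8 and of its antisense gene PSMB8-AS1 were not stated to be separated by strand. The antisense gene had mean counts of 33.7 in parental and 73.7 in KR-AA libraries, beside 1629.4 and 1423.0 for PSMB8 itself.

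**Figure D2:**
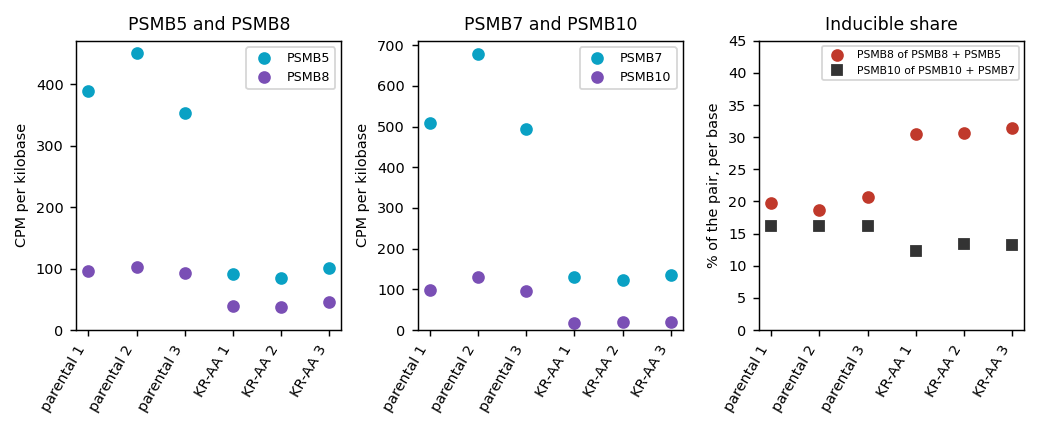
Level of PSMB5 and PSMB8 (left) and of PSMB7 and PSMB10 (middle) in CPM per kilobase of transcript, and the inducible gene as a percent of the pair (right), 1 point per library. PSMB8 lies at 18.7% to 20.7% of its pair in parental and 30.5% to 31.4% in KR-AA libraries, PSMB10 at 16.1% to 16.2% and 12.2% to 13.4%.

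In the base and lid of the regulatory particle, 9 of 17 genes fell, 4 rose and 4 did not pass, with a median log2 fold change of -0.91. With library totals 8 fell and 8 rose at a median of 0.01, and with length and GC offsets 13 fell and 2 rose at a median of -0.74. The ring of 6 ATPases, whose products sit side by side in 1 hexamer, spanned log2 fold changes from -2.97 to 1.57. Their coding sequences are shown for the same stretch, the 30 codons that start at the glycine of the Walker A motif (the ATP-binding loop), because the genes that fell and the gene that rose encode related protein with different codons. Sequences are the sense strand of the canonical GENCODE transcripts, 5′ to 3′, and capitals mark a G or C in the last position of a codon.

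PSMC3: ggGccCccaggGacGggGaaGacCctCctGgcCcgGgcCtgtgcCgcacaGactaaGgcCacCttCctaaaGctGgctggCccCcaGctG
PSMC4: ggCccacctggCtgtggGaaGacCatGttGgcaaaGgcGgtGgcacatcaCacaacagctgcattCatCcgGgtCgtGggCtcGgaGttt
PSMC5: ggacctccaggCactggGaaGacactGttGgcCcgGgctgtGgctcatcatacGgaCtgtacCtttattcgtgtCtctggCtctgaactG
PSMC1: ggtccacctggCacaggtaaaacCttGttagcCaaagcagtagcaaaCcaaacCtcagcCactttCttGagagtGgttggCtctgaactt
PSMC2: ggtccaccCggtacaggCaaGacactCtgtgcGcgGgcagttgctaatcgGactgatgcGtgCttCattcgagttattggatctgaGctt
PSMC6: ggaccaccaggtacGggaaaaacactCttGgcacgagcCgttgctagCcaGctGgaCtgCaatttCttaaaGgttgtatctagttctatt

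In this stretch 24 of 30 codons of PSMC3 end in G or C, 19 of PSMC4 and 14 of PSMC5, against 11 each in PSMC1, PSMC2 and PSMC6. Over the whole coding sequence the share of codons that end in G or C is 73.6% in PSMC3, 71.5% in PSMC4 and 61.3% in PSMC5, and 46.8% in PSMC1, 43.0% in PSMC2 and 34.4% in PSMC6. The genes lie apart in the genome (annotation lifted to GRCh37), with chr11:47440320-47448024 for PSMC3, chr19:40477072-40487671 for PSMC4, chr17:61904512-61909386 for PSMC5, chr14:90722871-90741773 for PSMC1, chr7:102969017-103010793 for PSMC2 and chr14:53173896-53195308 for PSMC6.

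From the most negative up, the TMM fold changes of the ATPases followed this share over the whole coding sequence from high to low. The GC content of the whole transcript, from 56.0% in PSMC3 to 36.4% in PSMC6, gives the same order, so the order does not single out codon ends. With length and GC offsets the order of the fold changes differed. PSMC1 and PSMC2 were then at -0.74 and -0.69, below PSMC4 and PSMC5 at -0.65 and -0.50. PSMC3 had the lowest fold change of all subunit genes with TMM and with library totals, while PSMB2 had it with length and GC offsets (-3.09 against -1.55). Its level was 648, 809 and 615 CPM in parental and 87.0, 83.7 and 94.4 CPM in KR-AA libraries, a 7.82-fold fall (log2 fold change -2.97 ± 0.15, adjusted p = 5.46e-09 by edgeR). PSMC4 fell from 193, 199 and 189 CPM to 61.3, 60.5 and 68.1 CPM (log2 fold change -1.61 ± 0.12). PSMC5 fell from 243, 264 and 245 CPM to 89.3, 81.9 and 91.8 CPM (log2 fold change -1.52 ± 0.12). It overlaps FTSJ3 on the opposite strand, which had 2365.0 and 1530.7 mean counts against 3755.0 and 2715.7 for PSMC5. PSMC6, by contrast, rose. It was at 9.23, 15 and 15.5 CPM in parental and 44.5, 44.2 and 28.8 CPM in KR-AA libraries, a 2.96-fold rise just under the fold of 3 (log2 fold change 1.57 ± 0.23, adjusted p = 3.50e-05 by edgeR). PSMC1 was at 67.7, 115 and 106 CPM and 102, 91.4 and 97.1 CPM, so its KR-AA libraries lay inside the parental range (log2 fold change 0.01 ± 0.18). PSMC1 has many pseudogene copies, of which PSMC1P1 had 250.1 and 382.6 mean counts in the 2 groups, beside 1438.1 and 3009.0 for PSMC1. PSMC2 was at 26.6, 52.1 and 45.4 CPM and 64.6, 60.4 and 52.1 CPM (log2 fold change 0.51 ± 0.21, adjusted p = 0.037 by edgeR). Without parental replicate 2 it passed the threshold (adjusted p = 0.00706 by edgeR). The gene span of PSMC2 overlaps that of PMPCB on its own strand, at 253.5 and 2005.9 mean counts against 617.3 and 1845.0 for PSMC2. Whether their exons overlap was not examined.

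Per kilobase of transcript, the levels of the 6 ATPases were far apart in parental cells and close together in KR-AA cells. The highest ATPase was 72.3, 55.5 and 40.9 times the lowest in parental libraries, against 3.17, 3.11 and 4.04 times in KR-AA libraries. The ratio of PSMC3 to PSMC6 was 72.3, 55.5 and 40.9 in parental and 2.01, 1.95 and 3.37 in KR-AA libraries. These are ratios within a library, and the groups did not overlap. In the fit with length and GC offsets, 5 of the 6 ATPases fell, from -0.50 for PSMC5 to -1.55 for PSMC3, and PSMC6 rose by 1.02.

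**Figure D3:**
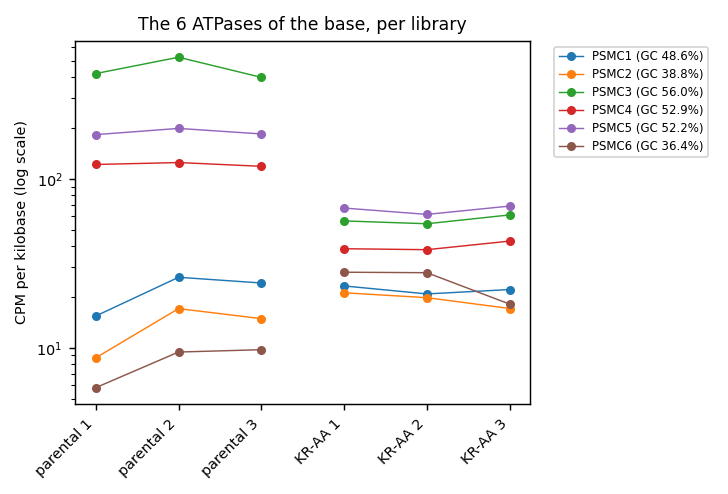
Levels of PSMC1 to PSMC6 in each library, in CPM per kilobase of transcript on a log axis, with the transcript GC content of each gene in the legend. In the parental libraries the highest gene is 40.9 to 72.3 times the lowest, and in the KR-AA libraries 3.11 to 4.04 times.

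The non-ATPase subunits of the base split in the same way. PSMD2, a docking site for shuttle factors that carry ubiquitinated proteins, was at 1165, 1043 and 944 CPM in parental and 206, 197 and 233 CPM in KR-AA libraries (log2 fold change -2.31 ± 0.14, adjusted p = 1.27e-08 by edgeR). The ubiquitin receptor PSMD4 fell from 531, 666 and 515 CPM to 159, 149 and 166 CPM (log2 fold change -1.85 ± 0.14). PSMD1, the other large scaffold of the base, rose. It was at 28.5, 54.8 and 53.4 CPM in parental and 98.1, 98.2 and 92.8 CPM in KR-AA libraries (log2 fold change 1.08 ± 0.21, adjusted p = 3.34e-04 by edgeR). The ratio of PSMD2 to PSMD1 per base was 44.4, 20.7 and 19.2 in parental and 2.28, 2.18 and 2.73 in KR-AA libraries. PSMD1 was at 0.19 under length and GC offsets, with an adjusted p of 0.29 by edgeR.

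Of the 8 lid genes 4 fell, 2 rose and 2 did not pass. PSMD8 fell from 534, 655 and 488 CPM to 95.6, 91.9 and 104 CPM (log2 fold change -2.53 ± 0.14). PSMD3 was at 921, 843 and 798 CPM in parental and 171, 159.7 and 194 CPM in KR-AA libraries (log2 fold change -2.29 ± 0.13). PSMD13 (log2 fold change -1.71 ± 0.13) and PSMD7 (log2 fold change -0.91 ± 0.14) fell by less, and PSMD7 was at 0.01 with library totals. PSMD14 encodes the deubiquitinase of the lid, which pairs with PSMD7, and it rose. Its values were 22.6, 34.0 and 33.5 CPM in parental and 63.0, 62.4 and 46.0 CPM in KR-AA libraries (log2 fold change 0.93 ± 0.19, adjusted p = 5.19e-04 by edgeR). PSMD12 also rose, from 25.4, 27.3 and 31.7 CPM to 53.8, 54.9 and 42.2 CPM (log2 fold change 0.84 ± 0.16). With length and GC offsets PSMD14 stayed higher, at 0.51 with an adjusted p of 0.0017 by edgeR, whereas PSMD12 was lower, at -0.85 with an adjusted p of 4.3e-05. PSMD11 and PSMD6 did not pass, at -0.16 ± 0.12 (SE) and 0.26 ± 0.15 (SE).

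The chaperones that assemble the base are PSMD5, PSMD9 and PSMD10, which leave before the particle is finished. PSMD10, also known as gankyrin, rose from 8.57, 14.9 and 13.4 CPM to 32.2, 30.7 and 26.5 CPM (log2 fold change 1.28 ± 0.20). PSMD5 rose from 18.0, 30.3 and 28.7 CPM to 47.2, 47.5 and 42.1 CPM (log2 fold change 0.83 ± 0.19), but was at -0.46 with length and GC offsets. PSMD9 fell from 124, 131 and 118 CPM to 35.5, 34.2 and 36.1 CPM (log2 fold change -1.82 ± 0.12), and it fell under each of the 3 scalings.

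Among the alternative caps, PSME4 encodes PA200, a single-chain nuclear activator of the core particle. Its level was 3.85, 2.99 and 6.29 CPM in parental and 47.1, 54.7 and 41.6 CPM in KR-AA libraries, a 10.8-fold rise (log2 fold change 3.44 ± 0.25, adjusted p = 5.34e-08 by edgeR). PSME4 rose under each of the 3 scalings, and the value was 4.35 with library totals and 1.25 with length and GC offsets. Per kilobase it was nonetheless the lowest of the 40 tested genes in both groups, at 0.604 ± 0.237 (SD, n = 3) and 6.59 ± 0.907 (SD, n = 3) CPM per kilobase. ACYP2, on the opposite strand, overlaps PSME4 and had 143.3 and 110.5 mean counts, beside 67.0 and 1478.6 for PSME4.

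PSME1 and PSME2 encode the heteromeric cap that works with the immunoproteasome, and they moved as a pair. PSME1 was at 216, 243 and 222 CPM in parental and 96.6, 93.1 and 108 CPM in KR-AA libraries (log2 fold change -1.19 ± 0.12), and PSME2 at 146, 190.1 and 163 CPM and 73.8, 75.6 and 80.3 CPM (log2 fold change -1.12 ± 0.13). The ratio of PSME1 to PSME2 per base was 1.06 ± 0.0776 (SD, n = 3) in parental and 0.997 ± 0.0459 (SD, n = 3) in KR-AA libraries, so the groups overlapped. PSME3, the homomeric nuclear cap, fell from 184, 172 and 169 CPM to 102, 95.4 and 109 CPM (log2 fold change -0.78 ± 0.12). None of the 3 passed with library totals, and with length and GC offsets PSME3 alone fell, at -1.18.

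The narrowing seen for the ATPases was also seen, in counts per base, over the core and over the base and lid. Over the 14 constitutive core genes, the SD of log2 level per base within a library was 2.13, 1.95 and 1.85 in parental and 1.16, 1.17 and 1.25 in KR-AA libraries. Over the 17 base and lid genes it was 2.42, 2.22 and 2.09 in parental and 0.84, 0.82 and 1.01 in KR-AA libraries. These spreads are not corrected for the shift in GC content between the groups. Whether genes outside the complex narrowed as well was not tested. In parental cells the top of the order was PSMA7, PSMB3 and PSMB6, at 756 ± 83.6, 744 ± 90.0 and 603 ± 93.7 CPM per kilobase (SD, n = 3). PSMB6 was below PSMA7 and PSMB3 in each parental library, at 583, 706 and 521 against 694, 851 and 724 for PSMA7. The lowest means of the base and lid there were those of PSMD12 and PSMC6, at 6.46 ± 0.739 and 8.33 ± 2.19 CPM per kilobase (SD, n = 3). Their order was not the same in each parental library. In KR-AA cells PSMB4 led at 230.0 ± 5.84 CPM per kilobase, above PSMA7 at 185 ± 6.25, and PSMD12 was at 11.5 ± 1.61 (SD, n = 3 each). The mean level per base of the constitutive core was 2.15 ± 0.0789 times that of the base and lid in parental libraries (SD, n = 3). In KR-AA libraries this ratio of means was 2.15 ± 0.0269 (SD, n = 3). Such means rest mostly on the highest genes, and the medians did move relative to each other. The median of the constitutive core was 305 CPM per kilobase in parental and 92.3 in KR-AA cells. That of the base and lid was 81.0 and 39.8 CPM per kilobase. The subunit genes together took 0.794% ± 0.0248 of all counts in parental and 0.502% ± 0.0014 in KR-AA libraries (SD, n = 3).

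**Figure D4:**
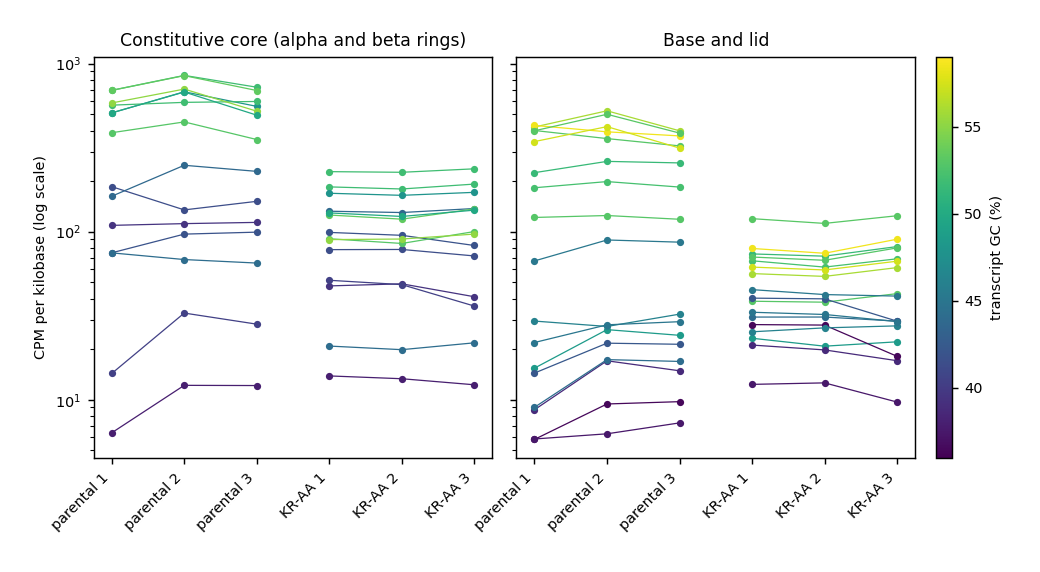
Levels of the 14 constitutive core genes (left) and the 17 base and lid genes (right) in each library, in CPM per kilobase of transcript on a log axis, coloured by transcript GC content. The SD of log2 level across genes is 1.85 to 2.13 (core) and 2.09 to 2.42 (base and lid) in parental libraries, and 1.16 to 1.25 and 0.82 to 1.01 in KR-AA libraries.

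The direction of a subunit gene went with the GC content of its transcript, which ranged from 36.4% in PSMC6 to 61.7% in PSMB10. Across the 40 genes, Pearson's r of GC content with log2 fold change was -0.80 and Spearman's rho -0.85. It was -0.77 in the core (n = 16) and -0.93 in the base and lid (n = 17), and -0.48 over 15902 tested genes. These correlations are descriptions across genes that share the same 6 libraries. All 18 subunit genes with a GC content of 50% or more fell, 13 of 13 between 50% and 55% and 5 of 5 above. Among all tested genes the same ranges held 969 of 2520 and 3322 of 5252 that fell. All 8 subunit genes that rose were under 45%, 6 of 10 between 40% and 45% and 2 of 5 below 40%, beside 2081 of 3104 and 1749 of 2374 of all tested genes in those ranges. Some genes of low GC content fell, PSMA2 at 39.5%, PSMA1 at 41.4%, PSMA6 at 43.8% and PSMB2 at 44.1%. In each of the 5 ranges the median of the subunit genes was below that of all tested genes in the range, from 0.51 against 1.81 under 40% to -2.53 against -1.22 from 55% up. With the length and GC offsets r was -0.22 among the 40 genes. Transcript length went with the fold change less closely (r = 0.50), as did the GC content of the promoter (r = 0.20, n = 35). The part of base composition in these fold changes was not tested beyond the offsets.

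**Figure D5:**
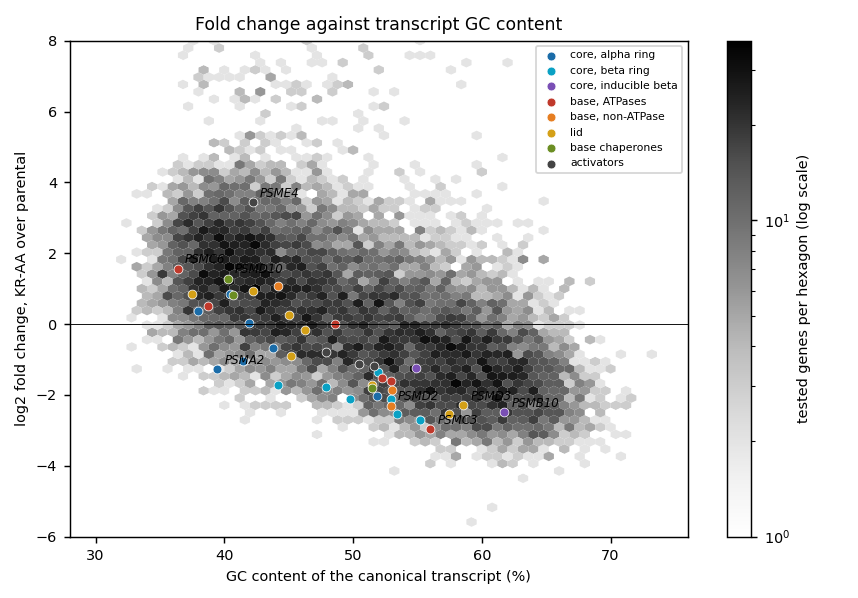
Log2 fold change (KR-AA over parental) against GC content of the canonical transcript, for 15902 tested genes (grey hexagons, shade is the number of genes on a log scale) and the 40 proteasome subunit genes (points, coloured by subcomplex). The subunit genes run from PSMC6 at 36.4% GC and 1.57 to PSMB10 at 61.7% and -2.49, with Pearson's r of -0.80.

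Proteasome genes are jointly induced by the transcription factor NRF1 (NFE2L1) through antioxidant response elements when proteasome activity is short. The core of that element, TGACNNNGC, was searched on both strands in 300-base promoters from RefSeq (GRCh38.p14, 250 bases before to 50 after the start). Of the 42 genes 37 had an entry, and 10 of these (27%) held the motif, beside 13.6% of 27305 promoters. It was in 4 of 8 genes that rose, 6 of 21 that fell and 0 of 6 that did not pass, so it was found in genes of both directions. Promoters of PSMD3, which fell, and PSME4, which rose, are shown as the 100 bases before the start with the motif in capitals, reading on the gene's strand. In PSME4 the motif lies on the opposite strand.

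PSMD3 (chr17:39980707-39980806, plus strand): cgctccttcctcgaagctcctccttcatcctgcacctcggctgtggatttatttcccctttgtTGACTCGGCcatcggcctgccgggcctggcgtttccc
PSME4 (chr2:53970994-53971093, minus strand): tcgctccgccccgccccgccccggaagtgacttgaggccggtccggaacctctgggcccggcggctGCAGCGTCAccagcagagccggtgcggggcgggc

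The motif begins 37 bases before the start in PSMD3, with another beginning at position 34 after it, and 34 bases before the start in PSME4. A match is a description and not a binding site. CCAAT was in 45.9% of subunit gene promoters and 35.7% of all, and the interferon response core GAAANNGAA in 16.2% and 8.29%.

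NFE2L1 itself was at 403 ± 75.3 (SD, n = 3) CPM in parental and 403 ± 37 (SD, n = 3) CPM in KR-AA libraries. This depended on the scaling. Its log2 fold change was 0.91 with library totals (adjusted p = 0.000397 by edgeR). With an offset for length alone it was -0.84 (adjusted p = 9.58e-05 by edgeR), and with length and GC offsets 0.001. NFE2L1 was 1 of 39 genes of the wider pathway that were examined, all of which passed the filter. Of these, 20 rose, 15 fell and 4 did not pass, with a median log2 fold change of 0.52. Among all genes tested 41.6% rose and 32.7% fell, with a median of 0.32. With library totals 24 of the 39 rose and 8 fell, and with length and GC offsets 16 rose and 11 fell. Of 6 assembly factors 5 fell and 0 rose. POMP, which helps to build the beta ring, was at -1.27 ± 0.14 (log2 fold change, SE), the core chaperone PSMG4 at -1.82 ± 0.16 and the base chaperone PAAF1 at -1.59 ± 0.15. Of the 6, 3 fell with library totals, where POMP was at -0.34 (adjusted p = 0.037 by edgeR), and 3 with length and GC offsets, where PSMG4 was at -0.24 (adjusted p = 0.095). ADRM1, a ubiquitin receptor of the base, went from 827 ± 117 to 113 ± 8.41 CPM (SD, n = 3; log2 fold change -2.87 ± 0.15, SE). It was at -1.94 with library totals and at -0.60 with length and GC offsets. SEM1, a small lid subunit, and PSMF1, an inhibitor, were at -0.65 ± 0.19 and -0.72 ± 0.12, but at 0.28 and 0.20 with library totals. The call of SEM1 was also lost when any of 4 single libraries was left out (adjusted p of 0.0138 to 0.0359 by edgeR).

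Of 12 enzymes and shuttles that visit the proteasome 9 rose and 1 fell, beside 41.6% and 32.7% of all genes tested. Their median GC content was 43.9%, and 2081 of the 3104 tested genes between 40% and 45% GC rose. With length and GC offsets 8 rose and 1 fell. Their median log2 fold change was then 0.49 in place of 1.58, and 0 in place of 6 were past a fold of 3. USP14, a deubiquitinase of the base, went from 16.9 ± 5.19 to 62.5 ± 2.83 CPM (SD, n = 3; log2 fold change 1.88 ± 0.20, SE), but was at 0.018 with length and GC offsets (adjusted p = 0.928 by edgeR). ECPAS, an adaptor of the proteasome, was at 3.45 ± 0.21, and ZFAND5, an activator, at 2.20 ± 0.18. The shuttle factors UBQLN1, RAD23B and UBQLN2 were at 2.06 ± 0.17, 1.90 ± 0.16 and 1.88 ± 0.23. In the NRF1 group, DDI2, the protease that activates NRF1, was at 3.52 ± 0.25 and NFE2L2 at 2.90 ± 0.23 on the same log2 scale. They were at 1.01 and 2.02 with length and GC offsets.

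Of 6 ubiquitin and ubiquitin-activating enzyme genes 4 fell and 2 rose, beside 32.7% and 41.6% of all genes tested. UBB fell from 3132 ± 284 to 586 ± 16.5 CPM (SD, n = 3; log2 fold change -2.42 ± 0.13, SE) and RPS27A was at -0.86 ± 0.14 (0.054 with library totals). The ubiquitin-activating enzyme UBA6 rose, at 2.43 ± 0.32, but was at -0.084 with length and GC offsets. Of 7 genes that control the immunoproteasome through interferon 6 rose and 1 fell, beside the same 41.6% and 32.7% of all genes. Those that rose include the kinases JAK1 and JAK2 (log2 fold change 2.47 ± 0.18 and 2.42 ± 0.37). The gene that fell, IRF1 (-0.60 ± 0.17), was named after its values were seen. IRF1 passed neither with library totals (0.31, adjusted p = 0.143 by edgeR) nor with length and GC offsets. With these offsets 4 of the 7 rose, and 0 in place of 3 were past a fold of 3. JAK1 was then at 1.25 and JAK2 at 0.51 (adjusted p = 0.191 by edgeR).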

How the data were processed

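Total RNA was extracted with Trizol and libraries were made with the Illumina TruSeq RNA kit. The study's methods name SeqPrep and Sickle for trimming the paired-end reads. The submitters' processing notes name HISAT2 2.1.0, RSEM 1.3.1, DESeq2 1.24.0 and the build hg18, without saying how they were combined. The authors deposited estimated counts (expected counts, not normalized) per Ensembl gene for 6 libraries and a gene length in bases as another column. The depth was 20301396 to 26712816 counts, so 3 counts were worth 0.0818 to 0.218 CPM; intervals of this kind cover counting error only. Libraries of a group differed by more than sampling noise (chi-square per degree of freedom 4.29 to 39.1), so each counted as 1 replicate.

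Counts were rounded, filtered with filterByExpr (min.count 10, min.total.count 15), scaled by TMM and tested across all genes by edgeR's quasi-likelihood method (edgeR 4.0.16, R 4.3.3). All 6 libraries entered without a covariate, and p-values were adjusted by Benjamini-Hochberg. Each SE was obtained by dividing the log2 fold change by the root of F. CPM values are scaled by TMM, and levels per kilobase or per base use the deposited length. Symbols, GC content and coding sequence came from GENCODE 44 (canonical transcripts, lifted to GRCh37), which may not be the annotation behind the counts, and 2139 of 58884 genes had no entry. The offsets fit removes, in each library, a spline (5 degrees of freedom) of log counts on length and on GC content. The members, gene lists and tests were chosen with earlier results of these data known. All members are named, and of the 39 related genes a fixed few and those past a fold change of 3 and an adjusted p of 0.01. One inducible beta ring gene and some of the related genes are not reported here. The fit was tested on simulated data, where it made 3 false calls among 15680 genes. With a GC bias simulated in the KR-AA libraries it made 9726 among 15650 genes without offsets. With length and GC offsets it made 2 among 15500. The simulated bias depended on GC content alone, which the offsets are built to remove. This count thus cannot show how well they work on these libraries. How near the simulated bias is to that of these libraries was not tested. Alternatives were DESeq2 1.42.0, library totals, other filters, length and GC offsets, a replicate block, a test against a fold of 3, and leaving out each library.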

Additional observations from a re-analysis of the deposited data

How the results depend on the processing

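The 26 subunit genes that fell and the 16 past a fold change of 3 stayed within 1.5 times those counts under DESeq2, without the low-count filter, under the replicate block and without each library (26 lower in every case for the libraries). Without 1 library, 1 to 2 subunit genes were called higher at a fold of 3, the second being PSMC6. That count was also 2 without the filter and 2 with at least 10 counts in every library. With library totals, 7052 genes were called up and 973 down, 2879 were lower, 8 subunit genes were called up and 4 down, and 14 were higher. The core median was then -0.61 and the base and lid median 0.0115. With length and GC offsets, 2811 genes were called up and 1008 down, 0 subunit genes were called up and 4 down, 5 were higher, and the medians were -0.96 and -0.74. With a length offset, 5 were called up and 6 down, with medians of -0.39 and -0.55. With at least 10 counts in every library, 2898 genes were called up and the medians were -1.34 and -0.72. With DESeq2 the core median was -1.66. Tested against a fold of 3, 2974 genes were called up, 1779 down, and 10 subunit genes down. The test against a fold of 3 is stricter by construction, and for the others the cause was not tested.

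Signs turned for some genes. With length and GC offsets PSMA4 was at -0.14, PSMA5 -1.10, PSMB8 0.28, PSMC1 -0.74, PSMC2 -0.69, PSMD12 -0.85, PSMD5 -0.46, NFE2L1 0.001 and UBA6 -0.084. With a length offset PSMA1 was at 0.019, PSMA5 -0.014, PSMA6 0.65, PSMC1 -0.65, PSME2 0.21 and RPS27A 0.55. With library totals PSMA6 was at 0.25, PSMD11 0.76, PSMD7 0.012, PSME3 0.15, NFE2L1 0.91, SEM1 0.28, PSMF1 0.20 and RPS27A 0.054. DESeq2 gave PSMA4 -0.083 and PSMC1 -0.10. With 10 counts in every library PSMD11 was at 0.037 and NFE2L1 at 0.19, and without the filter NFE2L1 at 0.036. Without 1 library PSMA4 ranged from -0.097 to 0.109, PSMC1 from -0.201 to 0.132 and NFE2L1 from -0.169 to 0.119.

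The replicate numbers did not pair the libraries, since same-numbered libraries had correlations of deviations of -0.14, 0.12 and -0.045. Under the replicate block 9 subunit genes were higher (PSMC2 added, adjusted p = 0.00452 by edgeR) and 26 lower, and NFE2L1 was at 0.011. The block gave 4626 genes called up and 2827 down. Its prior degrees of freedom were infinite, as they were without the filter, so p-values of single genes from these fits rest on a pooled variance.

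A count of 3 was worth up to 0.218 CPM, below the lowest value of a tested subunit gene (PSME4, 2.99 CPM), while PSMA8 and PSMB11 were not detectable at this depth.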
